A study of Drosophila melanogaster with 12 samples.

Results

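The genes mwh, sha, f and sn encode proteins that place, shape or bundle the actin of the hairs and bristles of the fly wing. They are taken by name, a choice made for that function with earlier results of these data known, and all 4 are among the 15240 genes of the RNA table. RNA was sequenced from wings of female Drosophila melanogaster in 8 libraries, with 2 in each of 4 groups. Wild type (+/+ on each chromosome) and EcR-RNAi animals, raised at 25C, were each sampled before (-6 h) and after (+6 h) puparium formation. EcR-RNAi animals were yw/yw and carried Vg-GAL4, UAS-Flp and Tub>>CD2>>GAL4, with UAS-GFP over UAS-EcR-RNAi[104]. In this arrangement Gal4 driven by a vestigial element turns on a recombinase, which then leaves a tubulin-promoter Gal4 active in the descendants of those cells, so wing cells outside that lineage are not expected to express the hairpin. The wild type lacked the transgenes and the yw background, so an effect of these cannot be told apart from one of EcR loss. The larval wings at -6 h came from wandering animals. The study asked how the nuclear receptor EcR mediates the response of the wing to the steroid ecdysone.

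Each epithelial cell of the pupal wing builds a single distally pointing hair around a bundle of actin filaments, and sensory bristles grow around several such bundles. The protein Mwh, which carries a GTPase-binding and formin-homology domain, acts below the planar cell polarity system and limits where a hair may start; mutant cells make multiple hairs. Sha, also known as Shavenoid or Kojak, is needed for hairs to form. Forked, the product of f, and Singed, the product of sn and the fly fascin, cross-link actin filaments into bundles, and their mutants have bent bristles. Hairs themselves appear in the pupa, after the stages sampled here. The genes f and sn lie on the X chromosome, mwh on the left arm of the third and sha on the right arm of the second chromosome.

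The 3 genes mwh, f and sha rose 16.2-fold to 23.4-fold from -6 h to +6 h in wild-type wings on the fitted scale, where 29.1% of the 7775 genes tested rose and 26.7% fell. The lowest of these, that of sha, moved by over 1.5 times with either wild-type library at -6 h left out. Each rose less in EcR-RNAi wings by the test of the difference. That call ended for sha in 2 of 17 alternative analyses and held for mwh and f in each. The genes parted at -6 h, where mwh was lower but f and sha were higher in EcR-RNAi than in wild type. There the call of mwh ended in 1 and that of sha in 3 of 18 alternative analyses, while that of f held in each. The EcR-RNAi libraries at -6 h also had the highest sums of gut and fat body markers, whose part was not tested. At +6 h the level of mwh in EcR-RNAi was 4.26% of that in wild type and that of f was 24.5%, while that of sha was 80.7% and did not pass the test. The level of sn moved by 1.4-fold or less in each comparison.

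Levels are normalized counts, the reads of a gene divided by a size factor of its library, and the value after ± is the standard deviation (SD) of 2 libraries. Differences are log2 fold changes of the normalized count + 1 with their standard error (SE), from limma fitted to all 8 libraries and 7775 genes. Calls were made at padj, the p adjusted by the Benjamini-Hochberg method over all tested genes, under 0.05. The fold change understates the change of genes with few reads. Levels are compared between libraries for a gene and never between genes, since transcript lengths were not used.

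Reads counted on genes, as recovered from the normalized counts, numbered 6444939 to 10016236 per library. For EcR, the target of the hairpin, wild-type wings had 2194 and 1924 normalized counts before and 5764 and 6852 after puparium formation. The EcR-RNAi wings had 1634 and 1307, then 2201 and 2081, lower than wild type by 0.49 ± 0.14 (limma padj = 0.0449) and 1.55 ± 0.14 (limma padj = 1.0e-05) on the log2 scale. The call at -6 h ended in 8 of 18 alternative analyses. The 7 wing markers (vg, sd, nub, ap, rn, wg and Dll) had reads in each group, with sums of 14914 to 20418 normalized counts. Markers of 5 larval gut proteases summed to 1403 and 374 in EcR-RNAi at -6 h but to at most 4.20 in other groups, where 1 (wild type at -6 h), 3 (wild type at +6 h) and 4 (EcR-RNAi at +6 h) were at 0. For 6 fat body markers the sums were 1862 and 4641 in those libraries, against 214 to 581 in wild type at -6 h, 256 to 355 in wild type at +6 h and 743 to 878 in EcR-RNAi at +6 h. Sums of 5 tracheal markers were 7248 to 8349, then 40274 and 18353, in wild type and 13902 to 19576, then 41212 to 41890, in EcR-RNAi. Those of 6 myoblast markers were 3184 to 3817, then 5685 to 7014, in wild type and 4471 to 4803, then 7369 to 7443, in EcR-RNAi. Their part in the stage responses was not tested. Because wings were measured whole, fewer cells of a type and less RNA per cell cannot be told apart.

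The gene for the inhibitor of extra hairs, mwh, was lower in EcR-RNAi at both times. Wild-type libraries held 36.8 and 42.3 normalized counts of mwh at -6 h, and 798 and 806 at +6 h. The EcR-RNAi libraries held 17.5 and 18.0 at -6 h, and 30.8 and 37.5 at +6 h. Wild type at +6 h lay far above all other libraries. Wild type at -6 h and EcR-RNAi at +6 h overlapped, and EcR-RNAi at -6 h lay lowest.

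The level of mwh rose in wild type by 4.31 ± 0.20 on the log2 scale (limma padj = 1.4e-08), from 39.5 ± 3.9 to 801.7 ± 5.5 (SD, n = 2 each). In EcR-RNAi it rose by 0.90 ± 0.20 (limma padj = 0.00965), from 17.8 ± 0.33 to 34.1 ± 4.8 normalized counts. That second call ended without replicate 2 of EcR-RNAi at +6 h (0.76, limma padj = 0.081) and with the 4 EcR-RNAi libraries alone (limma padj = 0.0906). In the authors' deposited table the same comparison of mwh had an adjusted p of 0.0659. The stage responses themselves differed, with a genotype by stage interaction of -3.41 ± 0.28 (limma padj = 9.6e-06).

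Between genotypes, mwh fell by 1.11 ± 0.20 at -6 h (limma padj = 0.00373) and by 4.52 ± 0.20 at +6 h (limma padj = 1.5e-07) in EcR-RNAi relative to wild type. Ordered from the lowest, the difference of mwh at +6 h ranked 12 of the 7775 genes tested. The call at -6 h rested on 38 and 66 reads in wild type and 18 and 22 in EcR-RNAi, and it ended with only the 4 libraries at -6 h (limma padj = 0.061).

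The hair gene sha, by contrast, was low in wild-type larvae and higher in EcR-RNAi larvae, with no difference called at +6 h. Larval wild-type wings had 3.87 and 10.9 normalized counts of sha, which were 4 and 17 reads, and prepupal ones had 101 and 147. The EcR-RNAi wings had 24.4 and 27.0, then 114 and 85.8. Both EcR-RNAi libraries at -6 h lay above both wild-type ones, and the genotypes overlapped at +6 h.

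The rise of sha was 4.02 ± 0.40 in wild type (limma padj = 1.0e-05), from 7.38 ± 4.96 to 124 ± 32 normalized counts (SD, n = 2 each). It was 3.37 without replicate 1 and 4.66 without replicate 2 of wild type at -6 h, and 3.42 with a pseudocount of 5. In EcR-RNAi the rise was 1.91 ± 0.40 (limma padj = 0.00818), from 25.7 ± 1.9 to 100.1 ± 20.2, and without replicate 1 at +6 h it was 1.70 (limma padj = 0.0911). At -6 h sha was higher in EcR-RNAi by 1.81 ± 0.40 (limma padj = 0.0147). Without replicate 1 of wild type at -6 h, the library with 4 reads, this was 1.17 (limma padj = 0.0585), and without replicate 2 of EcR-RNAi at -6 h it was 1.74 (limma padj = 0.0564). Without replicate 2 of wild type at -6 h it was 2.45. It also ended with the 4 libraries at -6 h alone (limma padj = 0.07). At +6 h the difference of sha was -0.30 ± 0.40 (limma padj = 0.581), with a 95% interval from -1.18 to 0.58 that leaves room for a 2-fold lower level. The interaction of sha was -2.11 ± 0.56 (limma padj = 0.0181), and it was -1.46 without replicate 1 and -2.75 without replicate 2 of wild type at -6 h. The call ended without replicate 2 of wild type at +6 h (-1.84, limma padj = 0.0703) and without replicate 2 of EcR-RNAi at +6 h (-1.90, limma padj = 0.084).

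**Figure D1:**
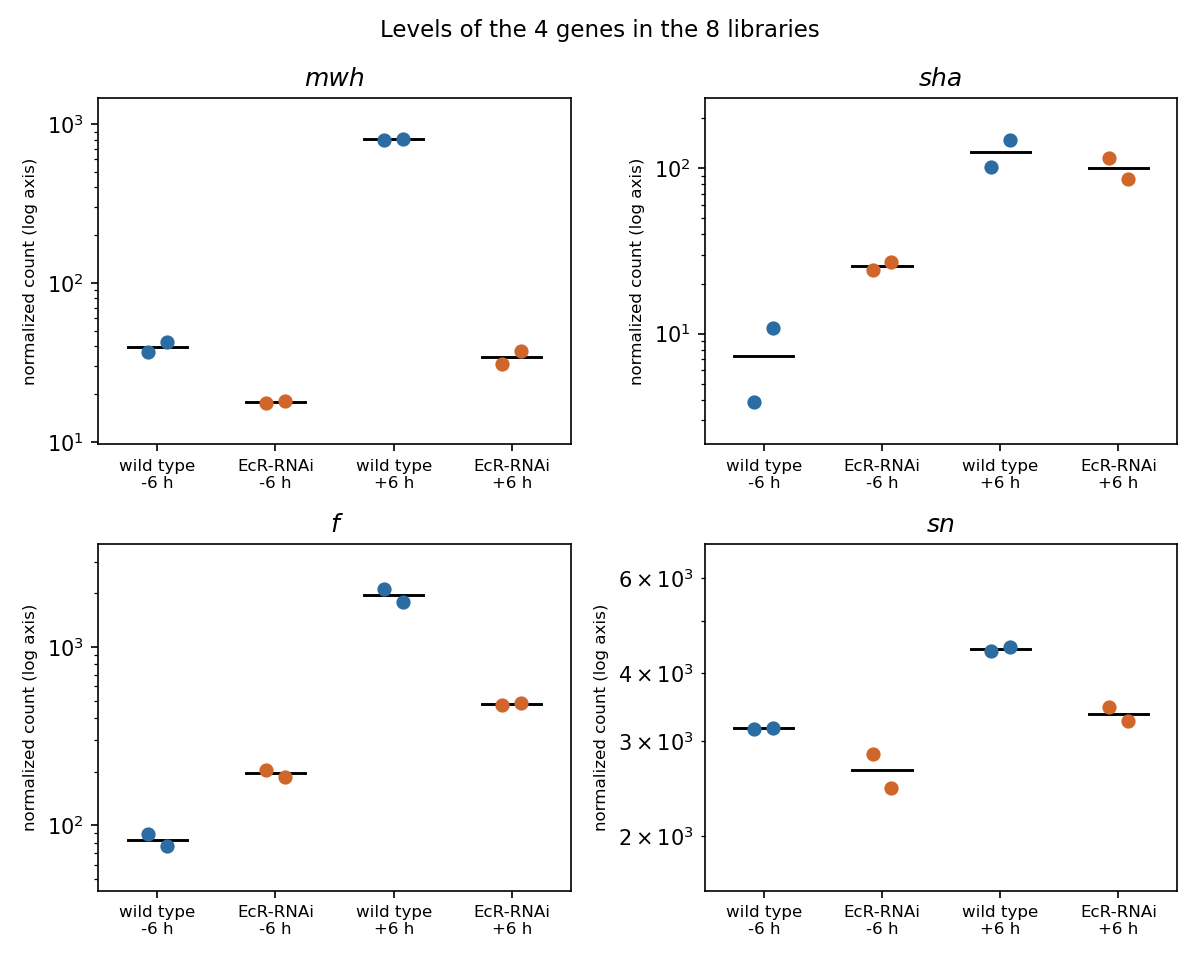
Normalized counts (log axis) of mwh, sha, f and sn in the 8 libraries, with 1 point per library and a bar at the mean of each group. For mwh, EcR-RNAi at +6 h (30.8 and 37.5) overlaps wild type at -6 h (36.8 and 42.3), whereas for f both EcR-RNAi libraries at -6 h (204 and 187) lie above wild type (89.1 and 76.2).

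Of the bundling proteins, the gene for Forked was higher in EcR-RNAi at -6 h and lower at +6 h. Wild-type wings held 89.1 and 76.2 normalized counts of f at -6 h, and 2127 and 1793 at +6 h. With EcR-RNAi there were 204 and 187 at -6 h, and 475 and 487 at +6 h. The 4 groups did not overlap, and EcR-RNAi lay between the wild-type stages at both times.

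At -6 h f was higher in EcR-RNAi by 1.23 ± 0.13 (limma padj = 1.6e-04), and at +6 h it was lower by 2.02 ± 0.13 (limma padj = 1.1e-06). The EcR-RNAi stage response of f was 1.30 ± 0.13 (limma padj = 5.0e-05), from 195 ± 12 to 481.1 ± 8.8 normalized counts, against 4.55 ± 0.13 (limma padj = 4.1e-10) in wild type, from 82.6 ± 9.1 to 1960 ± 236 (SD, n = 2 each). The interaction was -3.25 ± 0.18 (limma padj = 9.7e-07). Every call on f held in each alternative analysis that was run.

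The excess of f and sha at -6 h occurred in the libraries with the highest sums of gut and fat body markers. Gut markers were 1403 in replicate 1 and 374 in replicate 2 of EcR-RNAi at -6 h, fat body markers 1862 and 4641, f 204 and 187 and sha 24.4 and 27.0 normalized counts. Without replicate 1 the difference at -6 h was 1.17 for f (limma padj = 1.9e-04) and 1.88 for sha (limma padj = 0.0218), and without replicate 2 it was 1.30 for f (limma padj = 1.2e-04) and 1.74 for sha, no longer called (limma padj = 0.0564). The part of these tissues in the result was not tested. In the reference assembly (Release 6 plus ISO1 MT) f shares its span with CG8915, CG42854, CG8675 and CG8664. Of these, CG8664 was at 66.3 and 22.9 normalized counts in EcR-RNAi at -6 h and at 0.641 or less elsewhere. The sources used here do not state whether counting used strand, so reads of overlapping genes may not be separated. The span of mwh likewise overlaps 8 genes. These are meep, whose level was not analysed here, 6 lysozyme loci, at most 17.8 normalized counts each, and CG9119. In wild type CG9119 was at 0 and 1.28 at -6 h, then 38.8 and 61.9 at +6 h. With EcR-RNAi it was at 21.4 and 15.6, then 66.4 and 69.1. The part of such reads in the values of mwh was not tested. The span of sn overlaps sws, and no listed gene overlaps sha.

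Singed, the fascin, had 2453 to 4484 normalized counts over the 8 libraries and differed by 1.4-fold or less between groups compared. Wild-type wings had 3161 and 3170 normalized counts of sn before puparium formation, then 4405 and 4484. The EcR-RNAi values were 2839 and 2453, then 3465 and 3262. The groups did not overlap, with wild type at +6 h highest and EcR-RNAi at -6 h lowest.

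In wild type sn rose by 0.49 ± 0.11 (limma padj = 0.00322), from 3166 ± 6 to 4445 ± 56 normalized counts (SD, n = 2 each), a call that quantile scaling turned to -0.02 (limma padj = 0.863). At +6 h it was lower in EcR-RNAi by 0.40 ± 0.11 (limma padj = 0.0137), and this ended without any single library of the 4 at +6 h (limma padj = 0.0504 to 0.107) and with quantile scaling (-0.07, limma padj = 0.58). The EcR-RNAi stage response of sn was 0.35 ± 0.11 (limma padj = 0.0589) and the difference at -6 h was -0.26 ± 0.11 (limma padj = 0.169). The first passed without replicate 1 of EcR-RNAi at -6 h (0.45, limma padj = 0.0227). The interaction of sn was -0.14 ± 0.16 (limma padj = 0.564), with a 95% interval from -0.49 to 0.21. Fascin is also abundant in fly blood cells. Sums of the 7 hemocyte markers were 352 to 557 normalized counts in wild type at -6 h, 957 to 1107 at +6 h, 463 to 585 in EcR-RNAi at -6 h and 696 to 707 at +6 h, each marker having reads in each group. Forked and Singed also build sensory bristles. The 6 neuron and sensory organ markers summed to 1004 and 1112 in wild type at -6 h, to 3491 and 3755 at +6 h, and in EcR-RNAi to 1044 and 731 and then 2409 and 2051, each with reads in each group. The part of either cell type in these results was not tested.

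**Figure D2:**
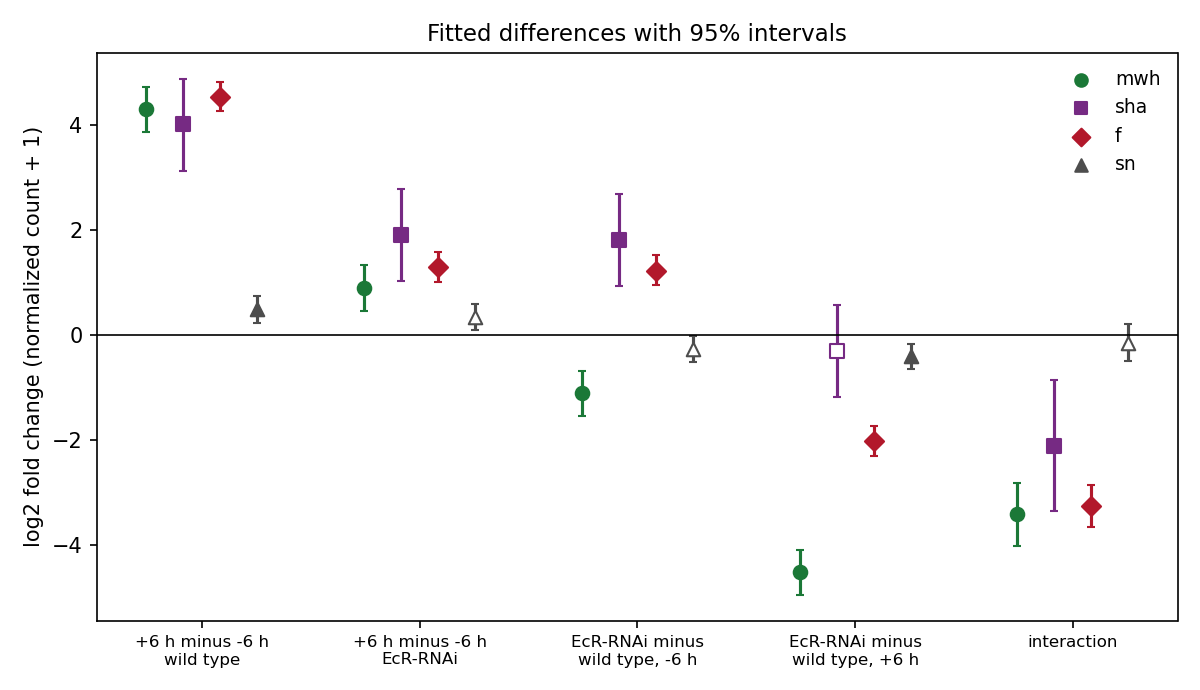
Log2 fold changes of mwh, sha, f and sn in the 5 comparisons, with 95% intervals from limma; filled symbols passed the test and open ones did not. At -6 h mwh lies at -1.11 while f and sha lie at 1.23 and 1.81, and at +6 h mwh lies lowest at -4.52.

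In counts, 4 of the 4 genes rose in wild type, against 29.1% of all genes (3 of the 4 with quantile scaling, which ended the call of sn), and the median of the 4 was 4.16 against -0.01 over all genes. In EcR-RNAi 3 of the 4 rose, against 12.1% of all genes higher and 3.88% lower, with a median of 1.10. At -6 h 2 were higher and 1 lower in EcR-RNAi, against 7.51% and 3.36% of all genes. At +6 h 3 of the 4 were lower, where 21.6% of all genes were lower and 21.3% higher. Among these the call of sn ended in 5 of 18 alternative analyses, quantile scaling being one of them. The interaction was negative for 3 of the 4 (that of sha ended in 2 of 17 alternatives), against 15.4% of all genes negative and 11.6% positive. The share of increases among all calls moved with scaling, from 52.1% to 36.0% in wild type and from 75.7% to 45.3% in EcR-RNAi with quantile scaling, and to 40.8% and 57.2% with upper-quartile scaling. For the interaction it moved from 43.1% to 54.2% with quantile scaling. Without replicate 2 of EcR-RNAi at +6 h, 505 rather than 943 genes rose and 96 rather than 302 fell in EcR-RNAi. The median over all genes in wild type moved by -0.23 with the first scaling and -0.17 with the second. The wild-type and EcR-RNAi comparisons share libraries with the genotype comparisons, so their calls are not independent of each other. The authors' deposited table put 15 of 16 differences of these genes on the same side of 0.05 and all 16 in the same direction, the exception being mwh in EcR-RNAi.

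Shavenbaby, a transcription factor made from the ovo gene, is known to switch on sha, f, sn and mwh in embryonic trichomes, and 11 further genes listed under it could be tested, ovo among them. In wild type 8 of 11 rose, against 29.1% of all genes, and ovo itself fell, with a list median of 2.47. The gene dyl, for a zona pellucida domain protein of the hair and bristle surface, led with 9.25 ± 0.57 (limma padj = 1.6e-04), from a mean of 58.7 to 36370 normalized counts. Its relatives dy (8.01 ± 0.26, limma padj = 2.3e-07) and m (4.93 ± 0.14, limma padj = 4.6e-10) followed, and both shape the wing cell apical surface. The decrease of ovo in wild type was -1.58 ± 0.18 (limma padj = 4.0e-05), from a mean of 4045 to 1351 normalized counts. In EcR-RNAi ovo was at 3677 and 3520 at the same times, a difference of -0.04 ± 0.18 (limma padj = 0.905). The table does not separate the products of ovo.

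Of these 11 genes, 7 had a negative and ovo a positive interaction, against 15.4% and 11.6% of all genes. The interaction was -5.68 ± 0.81 for dyl (limma padj = 0.0087), -4.99 ± 0.36 for dy (limma padj = 9.4e-05), -3.21 ± 0.18 for nyo (limma padj = 9.7e-07) and -2.74 ± 0.20 for m (limma padj = 5.3e-06). It was -2.48 ± 0.47 for CG16798 (limma padj = 0.0026), -1.97 ± 0.20 for tyn (limma padj = 4.9e-05), -1.02 ± 0.17 for neo (limma padj = 0.00109) and 1.54 ± 0.25 for ovo (limma padj = 0.00171). As with f and sha, 4 of the 11 were higher in EcR-RNAi at -6 h, against 7.51% of all genes. These were dy (2.56 ± 0.26, limma padj = 9.5e-04), m (0.91 ± 0.14, limma padj = 0.00201), dyl (3.57 ± 0.57, limma padj = 0.0269, ended in 7 of 18 alternatives, at 390 and 1277 normalized counts) and nyo (0.54 ± 0.13, limma padj = 0.021, ended in 4 of 18). As with mwh, neo was lower there (-0.70 ± 0.12, limma padj = 0.00275). At +6 h 7 of 11 were lower, against 21.6% of all genes, and ovo was higher (1.37 ± 0.18, limma padj = 2.1e-04). The gene y was below the level for testing and tal could not be matched to a single entry.

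Among 15 tested genes for other actin bundlers and cross-linkers, 8 rose and 2 fell in wild type, against 29.1% and 26.7% of all genes, with a median of 0.33 that turned to -0.27 with quantile scaling. Over the alternatives 5 to 9 rose and 2 to 8 fell. The villin-like gene qua rose most, by 4.20 ± 0.38 (limma padj = 3.4e-06), from a mean of 5.31 to 112 normalized counts, and its interaction was -2.64 ± 0.53 (limma padj = 0.00398). The smallest called rise was that of the spectraplakin gene shot (0.33 ± 0.12, limma padj = 0.0352, ended in 9 of 18 alternatives). The filamin gene cher fell most, by 2.57 ± 0.11 (limma padj = 7.9e-09), with an interaction of 1.75 ± 0.15 (limma padj = 1.7e-05). Interactions were also called for the α-actinin gene Actn (-1.58 ± 0.16, limma padj = 4.2e-05), the filamin-related gene jbug (-0.90 ± 0.18, limma padj = 0.00371, ended in 1 of 17 alternatives) and the anillin gene scra (0.93 ± 0.14, limma padj = 7.8e-04). Those of the fimbrin gene Fim (-0.56 ± 0.18, limma padj = 0.0414) and the heavy spectrin gene kst (-0.49 ± 0.16, limma padj = 0.0429) each ended in 13 of 17 alternatives. At +6 h 8 were lower (2 to 9 over the alternatives) and 2 higher in EcR-RNAi, against 21.6% and 21.3% of all genes. The median there was -0.36, and -0.04 with quantile scaling. At -6 h limma called 0 of the 15 genes between genotypes, as did edgeR and DESeq2, and 1 had an unadjusted p under 0.05.

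Of the genes that act with mwh in placing and starting hairs, 7 of 15 rose in wild type, against 29.1% of all genes. Over the alternatives 4 to 8 rose and up to 5 fell, and the median of 0.29 turned to -0.13 with quantile scaling. At the top was ck, the myosin VIIA gene whose mutants have split hairs (1.49 ± 0.12, limma padj = 1.2e-06), and the smallest called rise was that of fry, the gene of a partner of the Tricornered kinase, at 0.29 ± 0.10 (limma padj = 0.0247, ended in 6 of 18 alternatives). The genes in, fy and frtz, whose products act just above Mwh, were at 0.01 ± 0.15 (limma padj = 0.966), 0.50 ± 0.23 (limma padj = 0.0945) and 0.40 ± 0.11 (limma padj = 0.0119, ended in 4 of 18). Interactions were negative for 6 of 15 (2 to 6 over the alternatives), against 15.4% of all genes, led by Rab23 (-1.16 ± 0.16, limma padj = 4.5e-04), a GTPase gene that limits hair number. Next came ck (-0.86 ± 0.17, limma padj = 0.00315) and sqh, for a myosin regulatory light chain (-0.86 ± 0.18, limma padj = 0.00525, ended in 1 of 17). Those of frtz, trc and Rab11, at -0.51 ± 0.16, -0.47 ± 0.15 and -0.46 ± 0.16 (limma padj = 0.0379, 0.0353 and 0.0483), ended in 12, 12 and 14 of 17 alternatives. At +6 h 9 of 15 were lower in EcR-RNAi (6 to 10 over the alternatives), against 21.6% of all genes. The median there was -0.46, and -0.15 with quantile scaling.

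Of 27 tested genes for actin nucleation, elongation and turnover, 5 rose and 3 fell in wild type (3 to 6 and 1 to 9 over the alternatives), smaller shares than the 29.1% and 26.7% of all genes, with a median of 0.19 that turned to -0.16 with quantile scaling. The nucleator gene spir rose most, by 6.41 ± 0.12 (limma padj = 4.9e-11), from a mean of 64.5 to 5561 normalized counts. It was higher in EcR-RNAi at -6 h (1.37 ± 0.12, limma padj = 5.0e-05) and lower at +6 h (-2.63 ± 0.12, limma padj = 1.5e-07), with an interaction of -4.00 ± 0.16 (limma padj = 4.8e-07). The formin gene form3 fell most, by 1.53 ± 0.16 (limma padj = 1.2e-05), with an interaction of 1.49 ± 0.23 (limma padj = 7.4e-04), and the formin gene DAAM had one of -1.03 ± 0.17 (limma padj = 0.00107). The interactions of capt, capu and Arpc4, at -0.72 ± 0.21, -0.48 ± 0.15 and 0.49 ± 0.16 (limma padj = 0.0266, 0.0304 and 0.043), ended in 7, 9 and 11 of 17 alternatives. Of 6 genes of bristle shaft growth 5 rose in wild type (3 to 5 over the alternatives), against 29.1% of all genes, with a median of 0.62 (0.29 with quantile scaling). They ranged from Sb, a transmembrane protease gene (3.37 ± 0.13, limma padj = 3.6e-09), to jvl (0.44 ± 0.13, limma padj = 0.0145, ended in 4 of 18 alternatives). Interactions were called for Sb (-1.85 ± 0.18, limma padj = 4.1e-05) and BicD (-0.68 ± 0.15, limma padj = 0.00579, ended in 1 of 17).

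**Figure D3:**
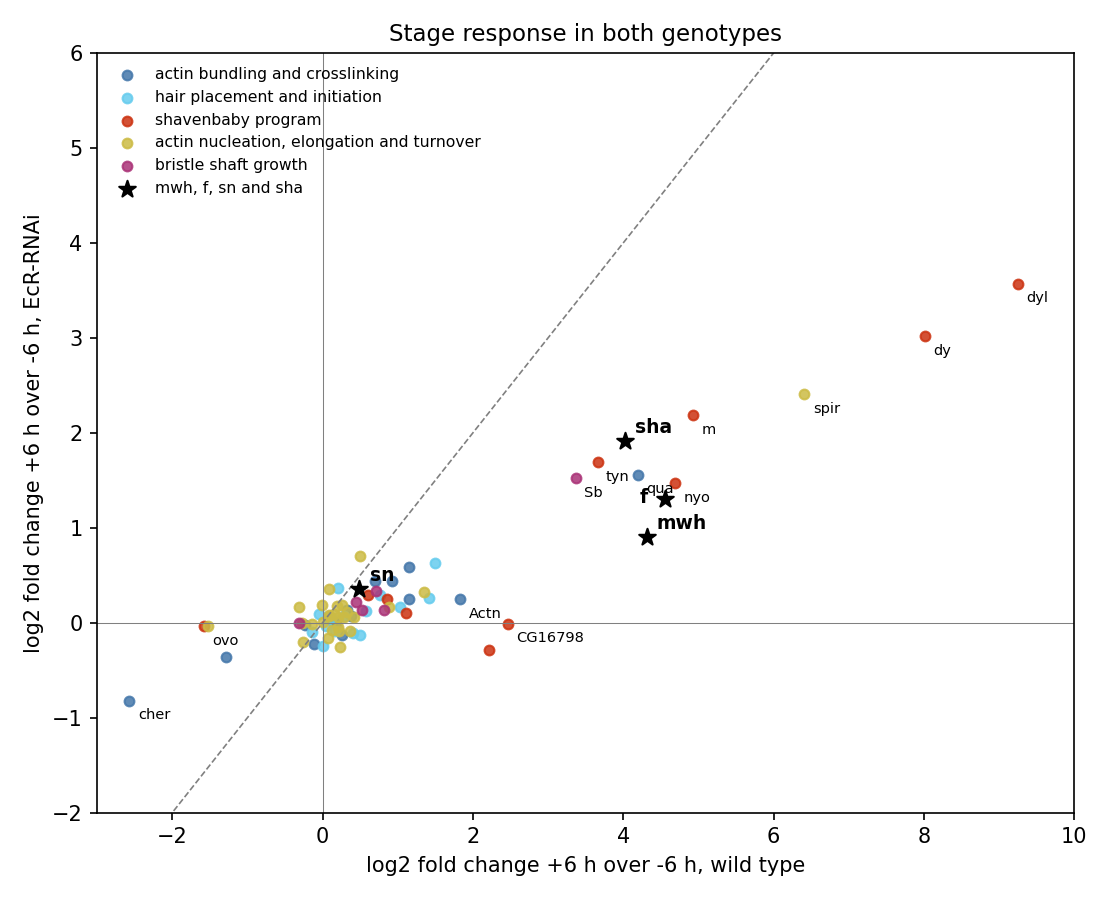
Stage response of each tested gene of the 5 lists (points, coloured by list) and of mwh, f, sn and sha (stars), in wild type on the horizontal and EcR-RNAi on the vertical axis, as log2 fold changes; the dashed line marks equal responses. The stars of mwh (4.31 and 0.90), sha (4.02 and 1.91) and f (4.55 and 1.30) lie far below the line and sn (0.49 and 0.35) lies close to it.

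Genes with the closest profiles were found by centring each gene on its mean and taking the root mean square (RMS) difference in log2 units over the 8 libraries, as a description. Closest to mwh were the protease gene Corin (0.379), the myosin III gene ninaC (0.447) and the septin gene Sep4 (0.450). Corin stood at 4.84 and 3.20, then 107 and 74.5, normalized counts in wild type. In EcR-RNAi it stood at 1.95 and 1.64, then 6.15 and 3.95. Like mwh, ninaC rose in wild type, from 11.6 and 12.2 to 189 and 164 normalized counts. With EcR-RNAi it stood at 5.85 and 10.7, then 8.61 and 13.8. Unlike mwh, ninaC was not called for the EcR-RNAi response (0.42 ± 0.38, limma padj = 0.516) or at -6 h (-0.53 ± 0.38, limma padj = 0.418). Near f were CG32082 (0.173), CG7367 (0.184) and CG15822 (0.199). The first is named IRSp53 in the reference, after a mammalian protein that couples membranes to actin, and it stood at 322 and 278, then 5901 and 5761, in wild type and at 673 and 697, then 1832 and 2065, in EcR-RNAi. The nearest to sha were the ankyrin gene Ank2 (0.356), the Arp2/3 subunit gene Arpc3B (0.439) and spz, the Toll ligand gene (0.475). Around sn, whose profile is nearly flat, were cnc (0.056), CG9171 (0.067) and Amun (0.067). Between the genes themselves the smallest RMS difference was that of f and sha (0.780) and the largest that of mwh and sha (1.856).

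**Figure D4:**
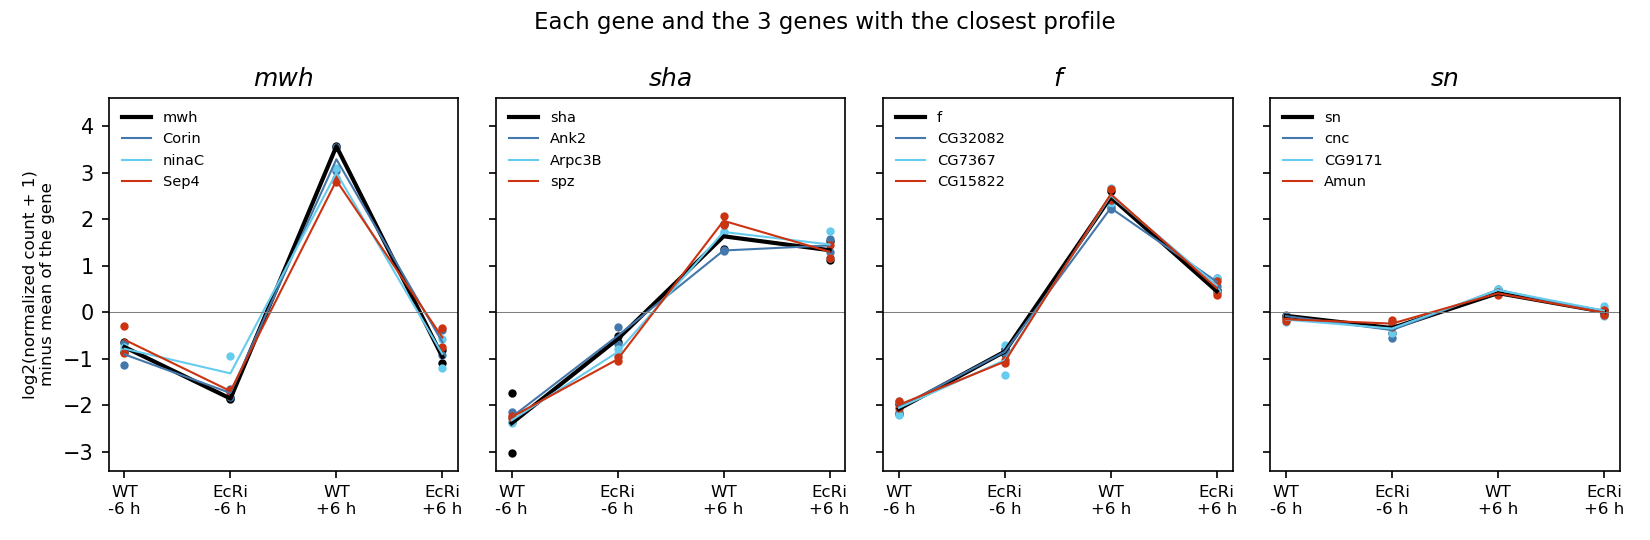
Log2(normalized count + 1) minus the mean of the gene, for mwh, sha, f and sn (black) and the 3 genes closest to each (coloured), with points for the 8 libraries and lines through group means; WT is wild type and EcRi is EcR-RNAi. EcR-RNAi at +6 h lies near wild type at -6 h for mwh, between the wild-type stages for f, and near wild type at +6 h for sha.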

How the data were processed

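The authors deposited a table of normalized counts, a signal that equals whole reads over a constant for each library, by the values. Per the submitters' processing notes, STAR 2.5.2b, SAMtools 1.3.1, Subread 1.24.2, DESeq2 1.14.1 and build dm3 were used, with no roles or settings. A further table holds the authors' log2 fold changes and adjusted p-values, and the authors' values from it are named where printed. Multiplying each deposited column by its constant gave whole reads for 100% of values, within 0.1 read. Groups and replicate numbers came from sample titles. No label says whether replicates were separate animals. The p-values then cover only the spread between libraries, which may be technical.

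Of all genes, 7775 averaged 10 or more normalized counts and entered limma 3.58.1 (R 4.3.3, trend and robust) on log2(normalized count + 1). The model held 4 group means over 8 libraries. It was also run on simulated counts in which few genes changed. The outcome is not reported here, and no support is drawn from that run. The members, lists and tests were chosen with earlier results of these data known; tal and Frl matched several entries and were left out. Genes named from a list are those with the largest and smallest called change in wild type and those called in the interaction, with the 3 closest profiles per gene; others named were chosen after their values were seen. Alternatives were other pseudocounts, scalings and filters, limma without trend and robust settings, edgeR 4.0.16 and DESeq2 1.42.0 on recovered reads, the replicate block, the 4 libraries of a comparison, and each library left out. The CUT&RUN peaks, in dm3 positions, were not used here, because gene positions at hand are of another build.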

Additional observations from a re-analysis of the deposited data

Results flagged for a closer look

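The stage response of 3 of the 4 genes differed between EcR-RNAi and wild type by the test of the difference itself. The interaction on the log2 scale was -3.41 for mwh (limma padj = 9.6e-06), -3.25 for f (limma padj = 9.7e-07) and -2.11 for sha (limma padj = 0.0181). For mwh and f the call held in each alternative analysis. For sha it ended in 2 of 17, and the wild-type level of sha at -6 h rests on 4 and 17 reads. The cause of these differences was not tested.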

How the results depend on the processing

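Of 356 alternative values of the 20 differences of mwh, f, sn and sha, 339 kept their direction and side of the threshold. Quantile scaling turned the wild-type response of sn to -0.02 and its interaction to 0.14, and its difference at +6 h to -0.07, which was no longer called. With the 4 libraries of a comparison alone, calls ended for the EcR-RNAi response of mwh (0.90), and at -6 h for mwh (-1.11) and sha (1.81). Leaving out 1 library changed a call for 6 differences. Their ranges were 0.76 to 1.04 (mwh), 0.24 to 0.45 (sn) and 1.70 to 2.11 (sha) for the EcR-RNAi response. They were 1.17 to 2.45 for sha at -6 h, -0.45 to -0.36 for sn at +6 h and -2.75 to -1.46 for the interaction of sha. The cause was not tested. A group left with 1 library is assumed to vary like the others. The replicate numbers are not stated to pair libraries, and deviations of same-numbered libraries correlated at r of -0.148 to 0.129 across genes. With the replicate block the interaction of mwh was -3.41 (limma padj = 1.7e-05), and no call of these 4 genes changed. Counts over all genes moved by over 1.5 times for the EcR-RNAi response (943 higher and 302 lower). It gave 522 and 102 without replicate 1 at +6 h, 505 and 96 without replicate 2, and 159 lower without replicate 1 at -6 h. It gave 606 lower with upper-quartile scaling, 945 with quantile scaling and 182 with DESeq2. Counts moved likewise for the difference at -6 h (584 higher and 261 lower, 357 and 101 without replicate 2 of wild type, 564 and 147 lower without replicate 1 and 2 of EcR-RNAi), and for +6 h higher (1653 to 1086) and the positive interaction (905 to 583) without replicate 2 of EcR-RNAi at +6 h. On recovered reads edgeR called 4331, 1298, 889, 3272 and 2046 genes in the 5 comparisons, and DESeq2 3784, 1089, 825, 2729 and 1652. The windows around EcR peaks were not run. The wild-type level of sha at -6 h rests on 4 and 17 reads, and without either library the wild-type response of sha was 3.37 or 4.66.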
